A study of Mus musculus with 11 samples.

Results

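The insulin-like growth factor (IGF) genes were followed through the MamBo cell lines, mouse mammary carcinoma cells that keep or lose human HER2. The set holds 10 genes of the 21846 in the count table. It has 2 ligands (Igf1, Igf2), 2 receptors (Igf1r, Igf2r) and 6 binding proteins (Igfbp2 to Igfbp7). They were taken by symbol and selected on their levels across the lines, so differences between lines are given as descriptions without a test. All 10 genes passed the filter on low counts in the fit over all 11 libraries. 6 passed it within MamBo38, where Igf1, Igf2, Igfbp2 and Igfbp5 did not, and 9 within MamBo89, where Igfbp6 did not.

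IGF-I and IGF-II are secreted peptides that drive growth and survival of mammary epithelium and of many carcinomas. Both signal through IGF1R, a receptor tyrosine kinase that works by way of IRS adaptors, PI3-kinase and AKT. IGF2R, the mannose-6-phosphate receptor, has no kinase and carries IGF-II to lysosomes. The secreted binding proteins hold the ligands away from the receptor or release them locally, and proteases that cut the binding proteins set the ligands free. IGFBP6 prefers IGF-II, and IGFBP7 is a relative that binds IGFs weakly.

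All cells came from FVB mice that carry a human HER2 transgene, and all were grown in DMEM with 20% fetal bovine serum, bovine pituitary extract and a serum extender. MamBo89 was derived from tumor A and keeps HER2. Its 4 libraries are a HER2-positive clone (replicate 1), an untreated parental culture (replicate 2), a culture given trastuzumab at 30 µg/ml for 30 days and then kept 30 days without it (replicate 3), and a culture given it for 60 days (replicate 4). The labels do not call replicate 1 a clone, and it was taken to be the clone that the study's methods name. MamBo43 was derived from tumor B and is HER2-positive but unstable, with 1 untreated library. MamBo43 TRT are MamBo43 cells seeded at high density that mostly lost HER2 under trastuzumab. They have 1 library after 30 days and withdrawal (replicate 1) and 1 after 60 days (replicate 2). The paper groups them as HER2-negative, but reports that a small share of HER2-positive cells and islets of polygonal cells stayed in such cultures. MamBo38 came from a HER2-negative tumor that grew after injection of MamBo43 cells. Its 4 libraries are 2 untreated cultures (replicates 1 and 2), 1 with 30 days of trastuzumab and withdrawal (replicate 3) and 1 with 60 days (replicate 4). Trastuzumab is an antibody against human HER2. Each line is a single tumor's descent, and all HER2-negative cells descend from tumor B. A comparison of HER2 status within tumor B rests on the 1 MamBo43 library as its HER2-positive side. The study's methods speak of 3 or more replicates per sample, except for treated MamBo38 cells, with only 2 samples. Each condition has 1 or 2 columns, so whether a column pools cultures is not known.

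Library totals ran from 17040454 to 27127662 counts, with a median of 20592201. Levels are given as CPM, read counts relative to the library's size after TMM scaling, and levels of different genes are compared only in CPM per kilobase of exon. A count of 0 allowed a level of up to 0.112 to 0.179 CPM (3 counts), which covers counting error only. The row of mouse Erbb2 stood at 155 ± 14.4 CPM (SD, n = 4) in MamBo89 and 117 CPM in MamBo43. In MamBo43 TRT it held 31.6 and 19.9 CPM, and in MamBo38 19.8 ± 2.87 CPM (SD, n = 4). Reads were aligned to the mouse genome, and whether reads of the human HER2 transgene entered this row was not tested. The row is therefore not read as the level of the endogenous gene alone. Mammary epithelial markers summed to 2700 to 4100 CPM in MamBo89, 3670 CPM in MamBo43, 2440 and 389 CPM in MamBo43 TRT replicates 1 and 2, and 1.44 to 2.9 CPM in MamBo38. In MamBo38, 5 of the 9 had more than 3 counts in any library, with Krt19, Cldn3, Cldn4 and Elf5 at or under 3, against 8 of 9 (all but Krt19) elsewhere. Fibroblast markers summed to 36.1 to 98.2, 358, 7400 to 8140 and 4200 to 4980 CPM in the same order, with 4, 7, 8 and 6 of 9 detected. Col1a2, Thy1, Dcn, Lum and Fap were at or under 3 counts in MamBo89. Myoepithelial markers summed to 11.5 to 37.7, 27.3, 114 to 623 and 8.43 to 27.4 CPM. Endothelial markers stayed at or under 0.893 CPM and adipocyte markers at or under 2.67 CPM. Leukocyte markers stayed at or under 50 CPM, nearly all of it Cd68, with Ptprc at or under 3 counts. Cd68 was at 26.8 to 49.9 CPM in MamBo38 and 6.93 to 16.7 CPM in MamBo89. In MamBo43 and MamBo43 TRT it was at or under 4.39 CPM. The labelled mammary origin was thus not visible in the epithelial markers of MamBo38. The part of these marker shifts in the IGF values was not tested, and in bulk cultures fewer cells of a kind and less RNA per cell cannot be told apart.

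The starts of 4 binding-protein genes are shown because their levels lay far apart between the lines, Igfbp4 and Igfbp6 in one direction and Igfbp2 and Igfbp5 in the other. Each run is the 250 bases before the start of the gene in the RefSeq table of GRCm38.p6, read 5′ to 3′ on the gene's strand. The last bases of the Igfbp5 window lie inside the gene in the GENCODE annotation. The Igfbp6 window ends at base 102144185, short of the GENCODE start at 102144362, and the Igfbp2 window ends at 72824479, short of 72824503. Capitals mark matches on either strand to TATAAA (the TATA box), GGGCGG (a GC box), CACCTG (an E-box) or TGANTCA (an AP-1 site), and no matches overlapped in these windows.
Igfbp4, chr11:99040994-99041243, plus strand: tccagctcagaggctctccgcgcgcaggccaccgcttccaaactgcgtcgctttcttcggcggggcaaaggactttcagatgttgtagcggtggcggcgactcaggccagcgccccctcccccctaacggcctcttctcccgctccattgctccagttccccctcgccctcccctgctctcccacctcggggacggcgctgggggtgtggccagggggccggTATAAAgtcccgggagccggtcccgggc
Igfbp6, chr15:102143936-102144185, plus strand: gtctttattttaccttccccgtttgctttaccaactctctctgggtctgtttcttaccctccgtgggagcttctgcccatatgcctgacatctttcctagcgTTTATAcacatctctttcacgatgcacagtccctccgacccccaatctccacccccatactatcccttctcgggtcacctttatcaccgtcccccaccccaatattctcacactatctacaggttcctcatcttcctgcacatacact
Igfbp5, chr1:72874866-72875115, minus strand: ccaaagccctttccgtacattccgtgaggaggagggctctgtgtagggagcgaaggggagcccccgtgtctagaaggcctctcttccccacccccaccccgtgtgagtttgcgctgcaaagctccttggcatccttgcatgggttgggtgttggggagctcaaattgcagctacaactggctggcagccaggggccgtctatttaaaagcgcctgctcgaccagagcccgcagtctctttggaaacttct
Igfbp2, chr1:72824230-72824479, plus strand: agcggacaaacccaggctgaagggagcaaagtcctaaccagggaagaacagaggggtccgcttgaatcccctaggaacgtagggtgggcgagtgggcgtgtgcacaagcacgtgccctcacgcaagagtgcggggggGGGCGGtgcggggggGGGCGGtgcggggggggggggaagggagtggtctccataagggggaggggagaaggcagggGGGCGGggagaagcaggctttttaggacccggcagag
The Igfbp4 window held TATAAA from base -28, counted from the RefSeq start, and the Igfbp6 window held it on the opposite strand from base -148. The Igfbp2 window shown, the first of its 2 in the table, held GGGCGG from bases -113, -98 and -37, and the Igfbp5 window held none of the 4 motifs. The second Igfbp2 window (chr1:72825137-72825386) held an AP-1 match from base -39, no GC box and 11 CpG pairs. Of 32851 windows of this length in the table, 12.4% held the TATA box, 32.7% the GC box, 17.2% the E-box and 6.75% the AP-1 site. CpG pairs numbered 22 in the Igfbp4 window, 7 in Igfbp6, 10 in Igfbp5 and 14 in Igfbp2, against a median of 6 over all windows. In these windows, the 2 genes that were highest in the HER2-negative cells did not share CpG density or the place of their TATAAA match. The Igfbp4 window reaches the GENCODE start and the Igfbp6 window does not, so the 2 windows cover unlike regions by that annotation. All 10 genes had a window in the table, 14 windows in all, and 6 of these held GGGCGG.

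Igf1 mRNA was found mainly in MamBo89, and the HER2-negative cells held next to none. Igf1 (ENSMUSG00000020053, chr10:87858265-87937042) encodes IGF-I. It measured 4.17 CPM in the MamBo89 clone and 71.5, 66.8 and 112 CPM in MamBo89 replicates 2, 3 and 4. MamBo43 held 1.65 CPM, which is 42 counts. MamBo43 TRT had 0 counts in replicate 1 and 1 count in replicate 2, and all 4 MamBo38 libraries had 0. MamBo89 and the HER2-negative libraries did not overlap, and the MamBo43 library lay between them. The mean of MamBo89, 63.5 ± 44.4 CPM (SD, n = 4), was 38.6 times that of MamBo43 and at least 1740-fold higher than MamBo38, taking 3 counts over the MamBo38 group as the bound. Against MamBo43 TRT the ratio for MamBo43 was 86.2, with a 95% counting interval of 15.5 to 3410. Without the clone the MamBo89 mean was 83.3 ± 24.7 CPM (SD, n = 3), so the clone set most of the spread. An antisense gene, Igf1os, overlaps Igf1 and has no row, and the kit keeps no strand.

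Igf2, the second ligand (ENSMUSG00000048583, chr7:142650766-142666816), was low everywhere and highest in MamBo43 TRT. Its CPM values were 2.7 in MamBo43 TRT replicate 1 and 16.8 in replicate 2. In MamBo89 they were 9.69 in the clone and 1.75, 0.933 and 0.495 in the other libraries, and MamBo43 had 1 count. MamBo38 libraries lay between 0.0963 and 0.298 CPM. MamBo43 TRT and MamBo89 overlapped, whereas both were above MamBo38 and MamBo43 in every library. The clone and the 60-day MamBo43 TRT library were thus the high ones, each within a line where the other libraries were several times lower. Igf1 and Igf2 ran opposite to each other in the clone, which had the lowest Igf1 and the highest Igf2 of the 4 MamBo89 libraries. Of 75-base windows of Igf2 transcripts, 60.7% also occur in Gm49394 or Igf2os, so the Igf2 values are uncertain. Gm49394, a readthrough gene at the same place, was listed at 0 counts in all 11 libraries.

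The signalling receptor was lower in the HER2-negative lines than in both HER2-positive ones, and the clearance receptor was higher in MamBo89 than in the tumor B cells. Igf1r (ENSMUSG00000005533, chr7:67952827-68233668) measured 157, 189, 196 and 203 CPM in MamBo89 and 244 CPM in MamBo43. It measured 100 and 85.9 CPM in MamBo43 TRT and 55.4, 64.5, 62.2 and 62 CPM in MamBo38. The 4 groups did not overlap, in the order MamBo43, MamBo89, MamBo43 TRT and MamBo38. MamBo43 was 2.62 times MamBo43 TRT and 4 times MamBo38. The spread within a line was small, 186 ± 20.2 CPM in MamBo89 and 61 ± 3.91 CPM in MamBo38 (SD, n = 4 each). Igf1r mRNA was still present in every HER2-negative library, with no fewer than 1044 counts.

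Igf2r (ENSMUSG00000023830, chr17:12682406-12769664) ranged from 637 to 997 CPM in MamBo89, with a median of 845. MamBo43 held 489 CPM, MamBo43 TRT 483 and 432 CPM, and MamBo38 459 to 510 CPM with a median of 481. Every MamBo89 library was above every other library, and among the tumor B cells the lines ran into each other. MamBo43 and MamBo38 differed by 1.01 times, less than the spread within MamBo38. Per kilobase of exon Igf2r exceeded Igf1r in every library, at 89.3 against 11.1 CPM per kilobase in MamBo89 on average and 51.9 against 3.64 in MamBo38. The antisense gene Airn overlaps Igf2r and has no row.

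**Figure D1:**
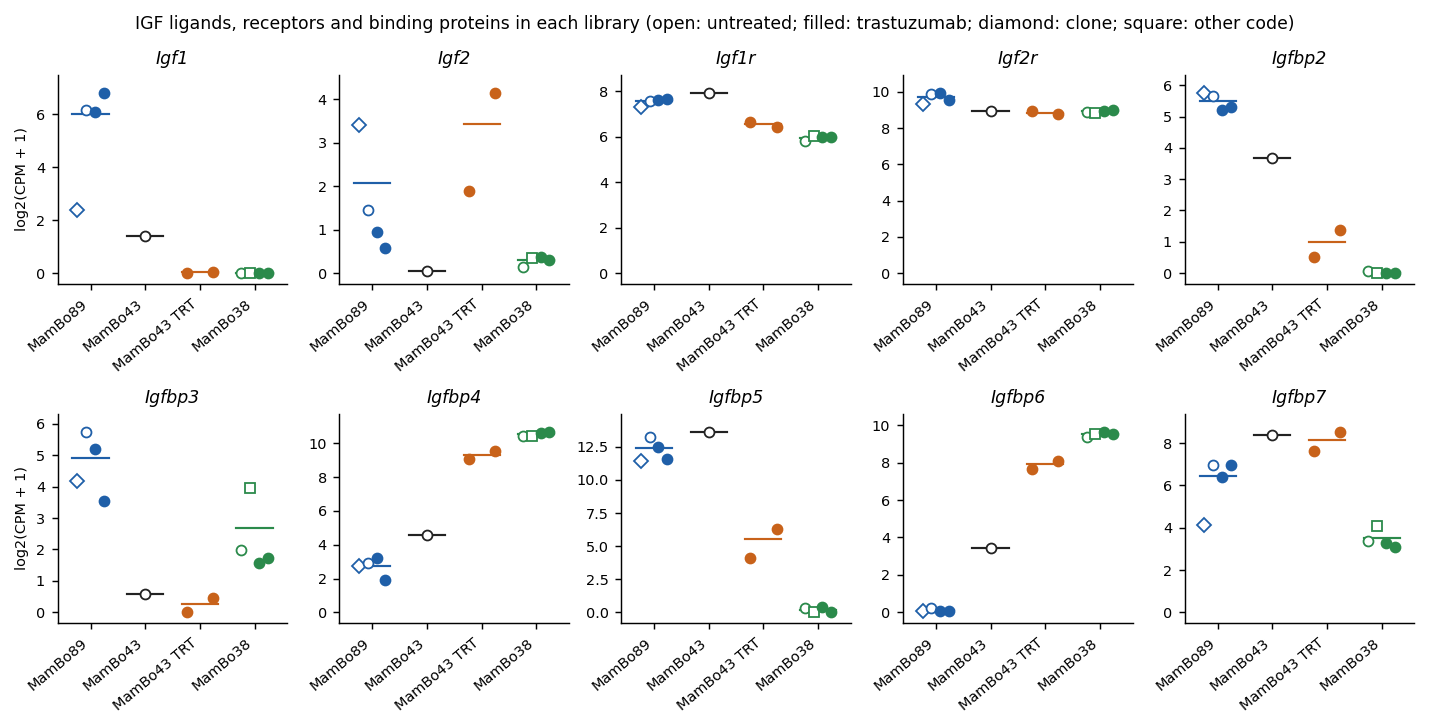
Each panel plots log2(CPM + 1) of 1 gene on the y axis for the 11 libraries, grouped by line on the x axis. Open points are untreated cultures, filled points had trastuzumab, the diamond is the MamBo89 clone and the square the MamBo38 library with the other code; lines mark log2 of the group mean CPM plus 1. Igfbp4 and Igfbp6 rise from left to right, to 1480 and 737 CPM in MamBo38, while Igf1, Igfbp2 and Igfbp5 drop to 0 or near it.

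Igfbp5 and Igfbp2 mRNA marked the HER2-positive cells. Igfbp5 (ENSMUSG00000026185, chr1:72857932-72874884), a secreted and matrix-bound IGF-binding protein that is abundant in the involuting mammary gland, measured 2750, 9820, 5700 and 3130 CPM in MamBo89 replicates 1 to 4. MamBo43 held 12700 CPM. MamBo43 TRT held 16.1 CPM in replicate 1 and 76.9 CPM in replicate 2, and the MamBo38 libraries had 5, 0, 5 and 0 counts. No 2 of the 4 groups overlapped. MamBo43 stood 272 times above MamBo43 TRT, and MamBo43 TRT stood 345 times above MamBo38, with a counting interval of 188 to 720. Among the MamBo43 TRT cultures, the 60-day library had 4.78 times the Igfbp5 of the withdrawn one. Its epithelial marker sum was the lower (389 against 2440 CPM) and its myoepithelial marker sum the higher (623 against 114 CPM). Most of the myoepithelial sum was Acta2 (466 against 69.2 CPM) and Krt14 (111 against 9.91 CPM). The part of these marker sums in the Igfbp5 difference was not tested. At 1.23% of all counts, Igfbp5 alone made up most of the 1.34% that the 10 genes took in MamBo43.

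Igfbp2 (ENSMUSG00000039323, chr1:72824503-72852474) encodes a binding protein that circulates and acts at the cell surface. It measured 53.6, 49.2, 36.2 and 38.8 CPM in MamBo89 and 11.8 CPM in MamBo43. MamBo43 TRT held 0.441 and 1.57 CPM, and the MamBo38 libraries had 1 count in replicate 1 and 0 in the others. The groups again did not overlap. MamBo89 was 44.3 times MamBo43 TRT, and MamBo43 was 984 times MamBo38 with a counting interval of 177 to 38900. Igfbp2 and Igfbp5 lie end to end on chromosome 1, on opposite strands and 5.46 kb apart, and their transcripts shared no 75-base window. They differed in which HER2-positive line was the higher: MamBo89 was 3.75 times MamBo43 for Igfbp2, and MamBo43 was 2.37 times MamBo89 for Igfbp5.

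Igfbp4 and Igfbp6 mRNA marked the HER2-negative cells. Igfbp4 (ENSMUSG00000017493, chr11:99041244-99054392), the binding protein that the protease PAPP-A cuts when IGF is bound, measured 1380, 1350, 1550 and 1630 CPM in MamBo38. MamBo43 TRT held 537 and 751 CPM, MamBo43 22.7 CPM, and MamBo89 5.67, 6.59, 8.16 and 2.81 CPM. The 4 groups kept apart from each other. The rise from MamBo43 was 28.4 times in MamBo43 TRT and 65 times in MamBo38, and MamBo38 was 2.29 times MamBo43 TRT. Igfbp4 in MamBo38 varied little, at 1480 ± 135 CPM (SD, n = 4).

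Igfbp6 (ENSMUSG00000023046, chr15:102144362-102149511), the binding protein that prefers IGF-II, measured 653, 748, 797 and 750 CPM in MamBo38. MamBo43 TRT held 204 and 273 CPM, and MamBo43 9.88 CPM. The MamBo89 libraries had 1, 4, 1 and 1 counts, at or near the level that 3 counts give. The order of the lines was that of Igfbp4, again without overlap. MamBo43 TRT was 24.1 times and MamBo38 74.6 times MamBo43, close to the ratios for Igfbp4. MamBo43 in turn was 114 times MamBo89, with a counting interval of 55.4 to 284. For Igfbp4 that step was 3.91 times.

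Igfbp3 and Igfbp7 followed neither pattern. Igfbp3 (ENSMUSG00000020427, chr11:7206086-7213923), the main carrier of IGFs in serum, measured 17.3, 52.5, 35.6 and 10.7 CPM in MamBo89 and 0.51 CPM in MamBo43. MamBo43 TRT had 0 and 10 counts. MamBo38 held 2.94, 14.6, 1.97 and 2.32 CPM, with replicate 2 apart from the rest. Through that library MamBo38 and MamBo89 overlapped, and without it MamBo38 was at 2.41 ± 0.491 CPM (SD, n = 3). Replicate 2 is the 1 MamBo38 library whose name carries the number code that all MamBo89, MamBo43 and MamBo43 TRT libraries carry, whereas the other 3 carry another code. Igfbp7 was also highest in that library of the 4, at 15.8 against 7.46 to 9.44 CPM. What the code stands for is not given in the labels, and its part in these values was not tested.

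Igfbp7 (ENSMUSG00000036256, chr5:77349240-77408041), a matrix-associated relative of the binding proteins, was at its highest in the MamBo43 cells with or without HER2. It measured 329 CPM in MamBo43 and 198 and 369 CPM in MamBo43 TRT, which overlapped. MamBo89 held 16.3 CPM in the clone and 124, 83.3 and 124 CPM in the others. MamBo38 held 9.44, 15.8, 8.58 and 7.46 CPM, below every other library. MamBo43 was 31.9 times MamBo38. Between the cells that lost HER2 in culture and those that lost it in the animal, Igfbp7 lay 27.4 times apart, MamBo43 TRT being the higher. Polr2b overlaps Igfbp7 on the other strand. It stood at 107, 93.3, 103 and 79.5 CPM on average in the 4 groups, and 0.914% of Igfbp7 windows were shared with it.

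The make-up of the binding-protein mRNA changed over almost completely between HER2-positive and HER2-negative cells. Taken per kilobase, Igfbp5 was 80.3% to 91.7% of the 6 genes' sum in MamBo89 and 87.8% in MamBo43. In MamBo43 TRT it was 0.568% and 1.74%, and in MamBo38 no more than 0.00461%. Igfbp6 and Igfbp4 took its place, at 64.2% to 67.5% and 30.7% to 35.2% in MamBo38. In MamBo43 TRT the sum was split between Igfbp7 (34.7% and 41.5%), Igfbp6 (38.9% and 33.5%) and Igfbp4 (25.8% and 23.1%). The summed level in MamBo89, at 508 to 1780 CPM per kilobase, overlapped MamBo43 TRT (471 and 735) and MamBo38 (908 to 1080). MamBo43 TRT and MamBo38 did not overlap each other, and MamBo43 was above every other library at 2400. In plain CPM, which gives more weight to the longer Igfbp5 transcripts, the sums did not overlap, at 2850 to 10000 in MamBo89 and 13000 in MamBo43 against 955 to 1470 in MamBo43 TRT and 2040 to 2390 in MamBo38. Per kilobase, Igfbp5 thus held most of the sum in all 5 HER2-positive libraries and in none of the 6 HER2-negative ones.

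**Figure D2:**
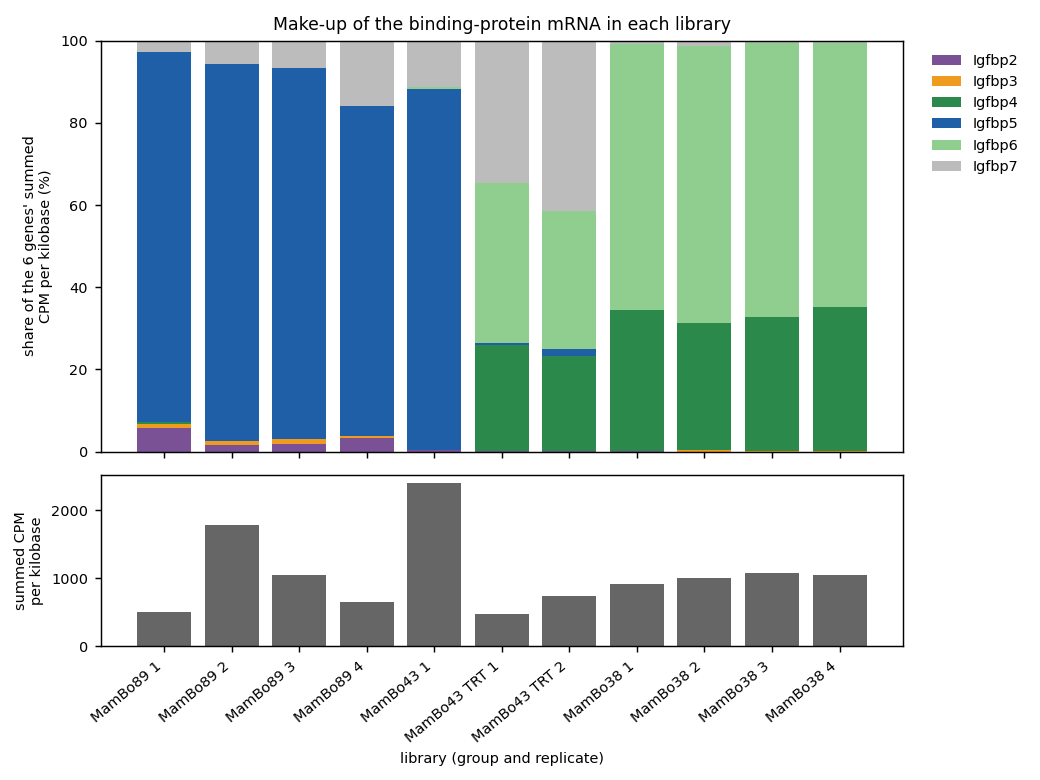
Upper panel: share in percent of each of the 6 binding-protein genes in their summed CPM per kilobase, 1 bar per library; lower panel: that sum in CPM per kilobase. The 5 HER2-positive libraries on the left are mostly Igfbp5, the 2 MamBo43 TRT libraries are split among Igfbp7, Igfbp6 and Igfbp4, and the 4 MamBo38 libraries are almost wholly Igfbp6 and Igfbp4.

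Counted over the whole set, 6 of the 10 genes had no overlap when the 6 HER2-negative libraries were set against the 5 with HER2, 2 higher (Igfbp4, Igfbp6) and 4 lower (Igf1, Igf1r, Igfbp2, Igfbp5). Of all 12364 genes tested, 34.9% did not overlap. In the edgeR quasi-likelihood fit (called at a Benjamini-Hochberg adjusted p below 0.1 with a log2 fold change of 1 or more either way), 2 of the 10 were called higher and 5 lower in HER2-negative cells, Igfbp3 joining the 4 named. Of all genes 32.8% were called, 15.8% higher and 17% lower. In MamBo43 TRT against MamBo38, 3 of 8 genes tested were called higher (Igf2, Igfbp5, Igfbp7) and 3 lower (Igfbp3, Igfbp4, Igfbp6), beside 21.6% of all genes, 9.9% higher and 11.7% lower. The genes were chosen by these same levels, so nothing is read from the counts. Both comparisons use the MamBo43 TRT and MamBo38 libraries and share them.

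Trastuzumab within a line did not enter the choice of the genes and was tested. In MamBo89, the 2 treated libraries were set against the 2 untreated ones, and in MamBo38 likewise. Of all genes, edgeR called 0 of 12046 (0%) in MamBo89 and 0 of 11861 (0%) in MamBo38. Before adjustment 186 and 503 genes had a p under 0.05, and DESeq2 called 3 and 4 genes. None of the 9 IGF genes tested in MamBo89 and none of the 6 tested in MamBo38 was called. That does not show that their levels were equal, since each arm had 2 libraries. The treated arms pool the withdrawn and the continuous schedule. Nothing in the labels says how far the libraries of an arm came from separate cultures, so the p-values measure only the spread between these samples, which may be technical.

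In MamBo89 the ligands had the widest estimates. Igf1 was at 66.8 and 112 CPM with trastuzumab and at 4.17 and 71.5 CPM without, a log2 fold change of 1.25 (SE 1.04, adjusted p = 0.944 by edgeR). Igf2 was at 0.933 and 0.495 CPM with trastuzumab and at 9.69 and 1.75 CPM without. The Igf2 arms did not overlap, with a log2 fold change of -3.02 (SE 0.97, unadjusted p = 0.0185, adjusted p = 0.944 by edgeR). The clone decided both values: without it they were 0.33 for Igf1 and -1.28 for Igf2, and with the clone as the only untreated library they were 4.39 and -3.79. With 1 untreated library the spread between samples comes from the treated pair and the lone library is assumed to vary like it, and the second setting sets a clone against parental cultures, so its calls are not read as an effect of trastuzumab. Igfbp7 was at 2.64 in that setting against 0.58 with all 4 libraries. Without the clone Igfbp5 was at -1.14, where the 1 untreated library left had 9820 CPM and the treated libraries 5700 and 3130 CPM.

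The receptors moved little with trastuzumab in either line. In MamBo89, Igf1r changed by 0.19 (SE 0.23) and Igf2r by 0.13 (SE 0.32) on the log2 scale. In MamBo38 these were 0.05 (SE 0.12) and 0.12 (SE 0.1). Igfbp4 and Igfbp6, the abundant binding proteins of MamBo38, were at 0.22 (SE 0.11, adjusted p = 0.663) and 0.14 (SE 0.12, adjusted p = 0.689) by edgeR. Igfbp3 in MamBo38 had a log2 fold change of -2.01 (SE 0.76, unadjusted p = 0.0441, adjusted p = 0.663 by edgeR), with treated libraries at 1.97 and 2.32 CPM and untreated ones at 2.94 and 14.6 CPM. The library with the other code decided it: without it the change was -0.45, and with it as the only untreated library -2.72. Within the 3 libraries that share a code, of which 1 was untreated, Igfbp7 was at -0.26 where all 4 gave -0.65 (SE 0.29).

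**Figure D3:**
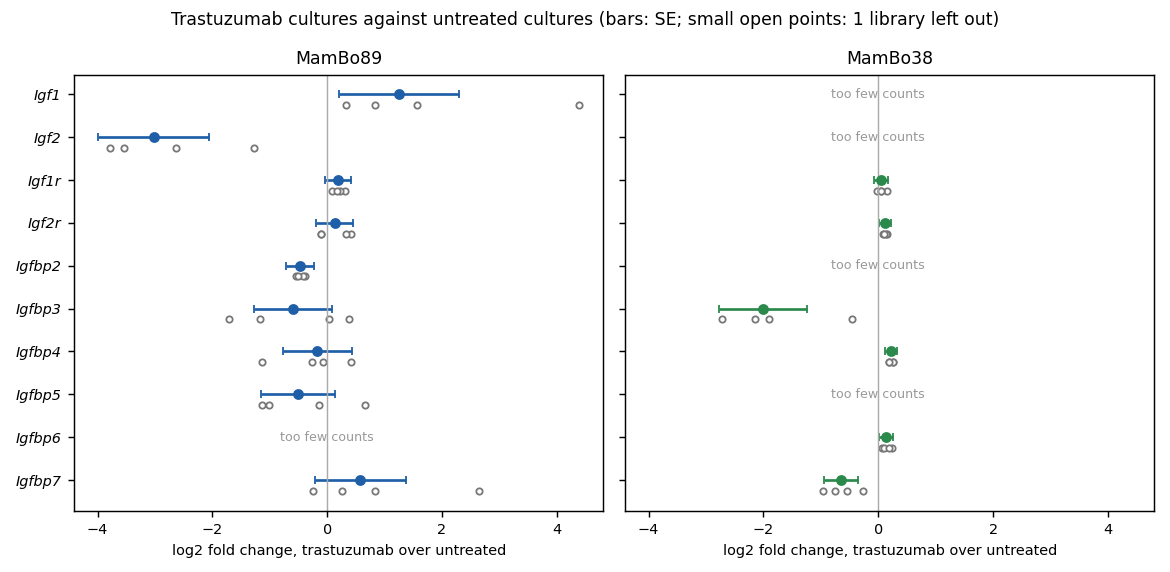
Log2 fold change of trastuzumab over untreated cultures on the x axis for each gene on the y axis, in MamBo89 (left) and MamBo38 (right); filled points and bars are the edgeR estimate and its SE from 2 against 2 libraries, and small open points are the estimates with 1 library left out. In MamBo89 the Igf1 estimates run from 0.33 to 4.39, and in MamBo38 the Igfbp3 estimates run from -2.72 to -0.45.

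Whether the effect of trastuzumab differed between MamBo89 and MamBo38 was tested by an interaction term over their 8 libraries. Over all 12983 genes edgeR called 0 (0%), 218 had a p under 0.05 before adjustment, and DESeq2 called 2. Of the 5 IGF genes with enough counts in both lines, Igfbp7 had an interaction of -1.22 (SE 1.07), Igfbp3 of -1.41 (SE 1.2) and Igfbp4 of 0.4 (SE 0.57) on the log2 scale, MamBo38 minus MamBo89. Igf1r was at -0.14 (SE 0.22) and Igf2r at -0.01 (SE 0.33). None of these 5 was called.

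Other genes of the pathway, from a list that does not hold the 10, were set beside them. Of 42 listed genes, 41 had a row and 31 were tested between HER2-negative and HER2-positive libraries, and 5 were called higher and 5 lower. That is close to the 32.8% of all genes, so the list did not stand out from the background. The median log2 fold change was -0.15 over the list and -0.04 over all genes. Igfbp1, Ins1, Ins2, Igfals and Igfbpl1 had too few counts, Igfbp1 and Ins1 with 0 in every library.

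Among proteases that cut binding proteins, Pappa, which encodes PAPP-A and acts on IGFBP4 above all, rose from 0.932 ± 0.54 CPM (SD, n = 5) to 38.5 ± 40 CPM (SD, n = 6) in HER2-negative cells. Its log2 fold change was 5.37 (SE 0.93, adjusted p = 0.00064 by edgeR). By line, Pappa was at 0.551 to 1.69 CPM in MamBo89, 0.353 CPM in MamBo43, and 44.8 and 115 CPM in MamBo43 TRT. In MamBo38 it was at 24.8, 22.5 and 21.9 CPM in replicates 1, 3 and 4 and at 1.84 CPM in replicate 2, the library with the code of the other lines, which lay next to the MamBo89 range. Htra1, a secreted serine protease, rose by 4.94 (SE 0.23, adjusted p = 3.5e-07 by edgeR). Stc2, an inhibitor of PAPP-A, was 1.15 lower on the log2 scale (log2 fold change -1.15, SE 0.35), a call that was lost among the libraries that share a code (-1.01) and without the clone (-0.88), and that turned to 0.51 with tumor of origin in the fit. In MamBo43 TRT against MamBo38, Pappa, Pappa2 and Grb14 were called higher, 3 of 32 tested beside 21.6% of all genes. The Pappa call there (2.17) was lost without MamBo43 TRT replicate 2 and the Pappa2 call (2.06) without replicate 1, at 1.35 and 0.62.

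Downstream of Igf1r, Irs1, the adaptor that docks on the receptor, fell by 2.41 on the log2 scale (SE 0.23, adjusted p = 1.66e-05 by edgeR), from 76.3 ± 34.2 to 14.3 ± 1.46 CPM (SD, n = 5 and 6). Pik3r3, a regulatory subunit of PI3-kinase, fell by 5.16 (SE 0.49), and the transcription factors Foxo1 and Foxo4, which AKT holds out of the nucleus, were lower as well, with log2 fold changes of -2.17 (SE 0.24) and -2.19 (SE 0.29). Eif4ebp1, a repressor of translation that TOR inactivates, rose by 1.29 (SE 0.2). Igf2bp2 and Igf2bp3, which bind Igf2 mRNA, were higher by 3.18 (SE 0.57) and 1.04 (SE 0.37). The Igf2bp3 gene was below 1 CPM on average in both groups, and its call was lost among the libraries that share a code and without the clone, MamBo43 or MamBo43 TRT replicate 1. Insr, the insulin receptor, was at -0.88 (SE 0.14), short of the fold minimum, and was not called. With tumor of origin in the fit, which then rests on MamBo43 as the HER2-positive library of tumor B, Pik3r3 was at -2.82, Foxo1 at -1.46, Foxo4 at -1.01, Pappa at 6.74 and Igf2bp2 at 6.69, all still called.

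**Figure D4:**
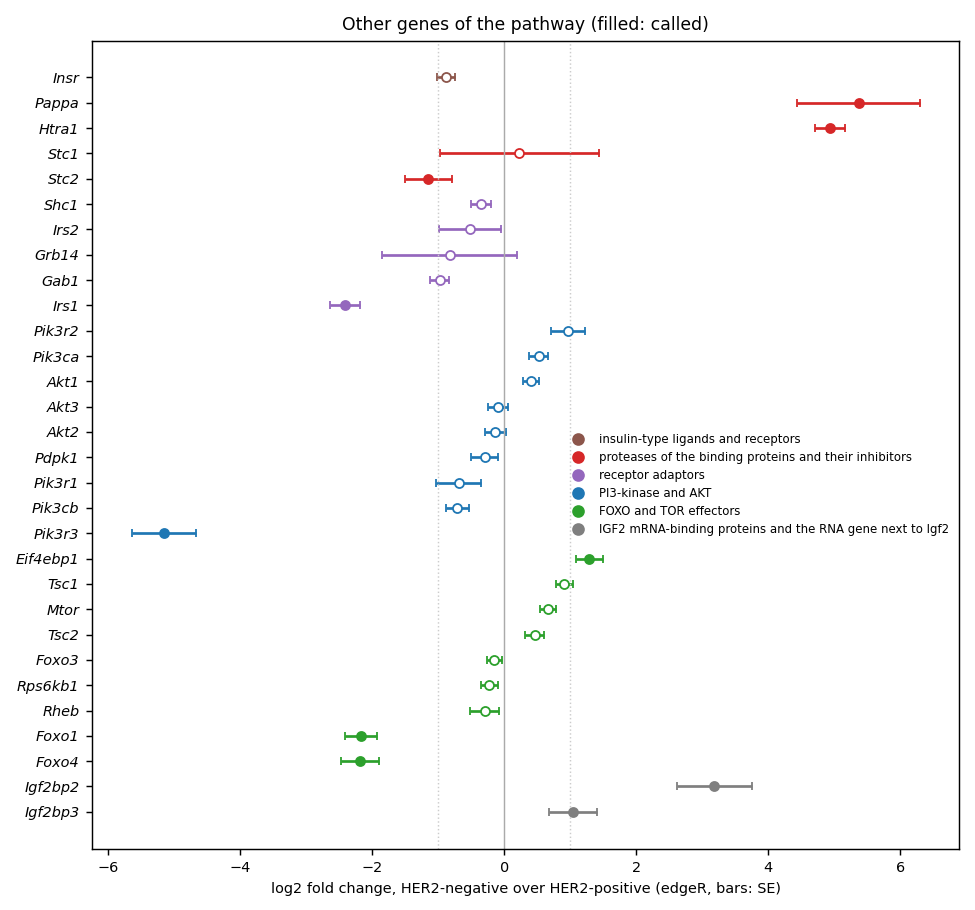
Log2 fold change (x axis) of 30 other genes of the IGF pathway (y axis) between 6 HER2-negative and 5 HER2-positive libraries, with SE bars from edgeR, coloured by list; filled points were called and dotted lines mark the fold minimum of 1. Pappa (5.37) and Htra1 (4.94) lie farthest to the right and Pik3r3 (-5.16) farthest to the left.

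The genes whose profiles lay nearest to each of the 10 were found by the mean absolute difference of log2(CPM + 1), centred on each gene's mean, over the 11 libraries. This is a description in which all genes share the same libraries. Peg3 was nearest to Igf1 (0.26), with 57.3 CPM in MamBo89 and 0 in MamBo38. Epha7 and Hunk were nearest to Igfbp2 (0.25 and 0.27), and Stim1 and Tst to Igf1r (0.11 and 0.12). Tnrc18 and Pacsin3 were nearest to Igf2r at 0.11 each. Igfbp4 lay nearest to Parvb (0.31) and Ugt1a6a (0.35), and Igfbp6 to Mt2 (0.36), a metallothionein, and Serpinf1 (0.38). The farthest from its neighbours was Igfbp5, whose nearest gene was Trf (1.2), which encodes transferrin and held 38000 CPM in MamBo89, 69100 in MamBo43, 1340 in MamBo43 TRT and 1.19 in MamBo38. Fhl1 (0.45) was nearest to Igf2, Npnt (0.39) to Igfbp3, and Ccn5 and Fbln2 (0.49 each) to Igfbp7. The second neighbours of Igf1, Igf2, Igfbp3 and Igfbp5 were Cited1 (0.38), Dmrta1 (0.54), Nrcam (0.46) and Ptprf (1.31).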

How the data were processed

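RNA-seq libraries, 11 in all, were sequenced as single-end 75-base reads with the TruSeq v2 kit, which keeps no strand. The authors aligned reads with STAR 2.5 and deposited expected counts per gene from RSEM 1.3.0 on mm10. These were rounded to whole numbers. Coordinates and exon lengths come from GENCODE M21 on GRCm38.

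Genes were filtered (minimum count 10, minimum total 15), scaled by TMM and tested with edgeR 4.0.16 quasi-likelihood fits in R 4.3.3, with Benjamini-Hochberg adjustment over all genes tested. Calls took the study's thresholds (adjusted p below 0.1, log2 fold change of 1 or more either way). DESeq2 1.42.0 was an alternative. The fits were tested on simulated data. Named were the 10 genes, called genes of the pathway list, markers by list, and each gene's 2 nearest profiles. The genes and lists were chosen with earlier results of these data known. No 2 libraries were identical. Ratios to groups of 1 to 30 counts carry exact 95% Poisson intervals of those counts, which cover counting error only. Windows of 75 bases were compared with all GENCODE transcripts, and a common code was read from library names. Protein sequences were not used here, and 1 listed gene is not reported here by name.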

Additional observations from a re-analysis of the deposited data

Results flagged for a closer look

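In MamBo89 and MamBo38, the lines with 4 libraries, 18 sets of values were looked at for a library far from the other 3 (by Dixon's ratio), and 3 were found. Chance gives about 1 in 20. Igf2 in MamBo89 was high in the clone, at 9.69 CPM against 0.495 to 1.75 CPM in the other libraries. Igfbp3 in MamBo38 was high in the untreated library with the other code, at 14.6 CPM against 1.97 to 2.94 CPM. Igfbp6 in MamBo89 was high in the untreated parental library, at 0.184 CPM against 0.0485 to 0.0583 CPM, which is 4 counts against 1 count in each of the others.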

How the results depend on the processing

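With 1 library left out, the calls ran from 3795 to 4607 for HER2-negative against HER2-positive (4052 with all), from 2500 to 2729 for MamBo43 TRT against MamBo38 (2715), from 0 to 2296 for trastuzumab in MamBo89, from 0 to 1057 in MamBo38 and from 0 to 826 for the interaction. The highest counts for trastuzumab came without MamBo89 replicate 2 or MamBo38 replicate 1; without MamBo89 replicate 1 or MamBo38 replicate 2 there were 5 and 8. In each of these settings 1 untreated library was left and was assumed to vary like the treated pair. DESeq2 gave 3, 4 and 2 calls for these tests. The direction turned for Igf2r in MamBo89 (-0.11 to 0.42), Igfbp3 (-1.71 to 0.38), Igfbp4 (-1.14 to 0.41), Igfbp5 (-1.14 to 0.65) and Igfbp7 (-0.24 to 2.64), for Igf1r in MamBo38 (-0.03 to 0.15), and for the interaction of Igf2r (-0.29 to 0.24), Igfbp3 (-2.38 to 0.15) and Igfbp4 (-0.18 to 1.37). The Igf2r interaction was also 0.01 with no filter on low counts. The log2 ratio of mean CPM between HER2-negative and HER2-positive cells was 0.4 for Igf2, from -1.84 without MamBo43 TRT replicate 2 to 2.08 without the clone, and -0.42 for Igfbp7, from -1.5 without MamBo43 TRT replicate 2 to 0.22 without MamBo43. For Igf1 no ratio could be had without MamBo43 TRT replicate 2, since all HER2-negative libraries left were at 0. Stc2 turned from -1.15 to 0.51 with tumor of origin in the fit. The cause was not tested. No paired analysis was possible because the labels give no replicate numbers shared between groups. With 1 MamBo43 library and 2 of MamBo43 TRT, spread within these groups is poorly known, and values under 0.112 CPM rest on fewer than 3 counts.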
